A study of Arabidopsis thaliana with 12 samples.

Results

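The 10 genes described here encode JASMONATE ZIM-DOMAIN (JAZ) repressors of Arabidopsis thaliana: JAZ1 (AT1G19180), JAZ2 (AT1G74950), JAZ3 (AT3G17860), JAZ5 (AT1G17380), JAZ6 (AT1G72450), JAZ7 (AT2G34600), JAZ8 (AT1G30135), JAZ9 (AT1G70700), JAZ10 (AT5G13220) and JAZ12 (AT5G20900). They were chosen by locus, from 33602 genes in the deposited tables, and all 10 are among the 22924 genes with enough reads to be tested. Poly-A RNA of whole Col-0 seedlings was sequenced in 4 groups of 3 libraries: 35S:HIN1 seedlings at -0.7 MPa (HIN1 stress), 35S:HIN1 seedlings at -0.25 MPa (HIN1 control), wild type at -0.7 MPa (WT stress) and wild type at -0.25 MPa (WT control). The 35S:HIN1 seedlings carry a transgene in which the 35S promoter, active in most plant tissues, drives HIN1 (AT3G11290), and they represent 1 stable line. All seedlings grew on half-strength MS agar without sugar in continuous light for 7 days, were moved to agar of control or lowered water potential (lowered with polyethylene glycol infused into the agar), and were harvested after a further 96 h. Each group's libraries came from 3 separate experiments, and p-values reflect how those experiments varied within 1 line, with no information on other lines. Levels of whole seedlings average over all organs, and fewer cells of a type and less RNA per cell cannot be told apart.

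JAZ proteins hold jasmonate signalling off. They bind MYC2 and related transcription factors and, through the adaptor NINJA or a motif of their own, recruit the corepressor TOPLESS (TPL). When the hormone jasmonoyl-isoleucine is present, the receptor COI1 binds JAZ proteins and marks them for degradation, which frees the MYC factors, and many JAZ genes are themselves MYC targets, so their transcripts are widely read as markers of jasmonate response after wounding or insect attack.

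The libraries held 58.0 to 68.56 M reads in genes. HIN1 itself stood at 316, 344 and 390 CPM (counts per M reads of the library) in HIN1 stress and 250, 297 and 260 CPM in HIN1 control, against 23.6, 24.5 and 22.8 CPM in WT stress and 24.5, 22.7 and 21.6 CPM in WT control, so every library labelled 35S:HIN1 held more than any WT library. No read of the 10 JAZ genes was shared with another site in the genome. A pair of libraries stand out for high levels of the JAZ genes. HIN1 stress library 3 held the highest level of its group for 9 of the 10 JAZ genes, where it was highest for 39.0% of all genes tested. WT control library 1 was highest of its group for 7 of the 10 JAZ genes, against 32.5% of all genes tested. Chloroplast genes took the largest share of reads in library 3 of all 4 groups (0.408% to 0.75%, against 0.141% to 0.263% in the others), and the part of this in the JAZ values was not tested. HIN1 stress library 3 was also highest for 32 of 42 jasmonate pathway genes described below. WT stress library 3 was highest of its group for 26 of these 42, where it was highest for 36.7% of all genes tested. At the other end, HIN1 stress library 1 was lowest of its group for 8 of the 10 JAZ genes, with no share over all genes counted. Values without HIN1 stress library 3 or WT control library 1 are given beside the results they move most.

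The 5 JAZ genes whose transcripts passed the test in at least 1 comparison were JAZ5, JAZ7, JAZ8, JAZ10 and JAZ12, and the 250 bases before the annotated start of each are shown so that they can be read beside its levels (RefSeq, assembly TAIR10.1). The authors' build was TAIR10. The windows run 5′ to 3′ on the gene's strand and lie at chr1:5957512-5957761 (minus strand), chr2:14572780-14573029, chr1:10596102-10596351, chr5:4218536-4218785 and chr5:7090454-7090703 (plus strand for the other four). Capitals mark matches to the motifs searched on both strands: the G-box CACGTG and the T/G-box AACGTG, which MYC factors are known to bind, and the cores ACGTGGC and ACGTGTC of the abscisic acid response element.
JAZ5: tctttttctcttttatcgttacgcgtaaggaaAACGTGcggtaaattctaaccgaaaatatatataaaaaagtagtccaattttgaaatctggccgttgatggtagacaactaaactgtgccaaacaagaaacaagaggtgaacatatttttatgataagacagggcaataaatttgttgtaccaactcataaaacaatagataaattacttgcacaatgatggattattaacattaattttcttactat
JAZ7: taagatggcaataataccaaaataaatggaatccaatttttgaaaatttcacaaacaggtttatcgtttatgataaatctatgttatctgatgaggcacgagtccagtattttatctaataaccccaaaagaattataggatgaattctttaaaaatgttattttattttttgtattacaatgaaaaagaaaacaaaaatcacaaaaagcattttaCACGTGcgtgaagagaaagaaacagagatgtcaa
JAZ8: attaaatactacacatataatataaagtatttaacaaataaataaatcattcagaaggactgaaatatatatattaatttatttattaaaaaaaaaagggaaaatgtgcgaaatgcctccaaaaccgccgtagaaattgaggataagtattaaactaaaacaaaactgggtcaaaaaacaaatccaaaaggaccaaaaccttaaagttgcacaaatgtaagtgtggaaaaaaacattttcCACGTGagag
JAZ10: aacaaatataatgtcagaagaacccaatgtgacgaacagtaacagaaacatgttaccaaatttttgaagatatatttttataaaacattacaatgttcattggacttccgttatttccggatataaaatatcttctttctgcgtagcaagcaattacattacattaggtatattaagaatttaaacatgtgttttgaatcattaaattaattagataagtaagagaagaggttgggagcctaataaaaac
JAZ12: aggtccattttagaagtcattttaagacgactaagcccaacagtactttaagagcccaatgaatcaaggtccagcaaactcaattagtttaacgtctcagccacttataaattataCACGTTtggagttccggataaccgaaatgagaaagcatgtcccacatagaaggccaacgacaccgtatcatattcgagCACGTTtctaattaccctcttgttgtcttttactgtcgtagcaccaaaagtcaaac
JAZ7 has a G-box that begins 34 bases before its start, and JAZ8 has one that begins 10 bases before its start. JAZ5 and JAZ12 have the T/G-box, once and in 2 places, the JAZ12 matches being its reverse complement CACGTT. JAZ10 has none of the motifs in this window. Over all 10 JAZ genes, 4 windows (JAZ2, JAZ3, JAZ7 and JAZ8) hold the G-box, against 6.49% of the 27437 windows of protein-coding genes. The T/G-box is in 4 windows (JAZ3, JAZ5, JAZ6 and JAZ12), against 7.54% of all, and the abscisic acid cores are in 0, against 6.39% of all. The T/G-box differs from the G-box in its end base, while the abscisic acid cores share the letters ACGTG with both, so 1 stretch can match more than one motif, and a match describes these letters and not a site in use. The genes lie on chromosomes 1 (JAZ1, JAZ2, JAZ5, JAZ6, JAZ8 and JAZ9), 2 (JAZ7), 3 (JAZ3) and 5 (JAZ10 and JAZ12).

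Compared per length, as deposited RPKM (reads per kilobase of transcript and per M reads), the JAZ transcripts fell in 1 order of group means in all 4 groups: JAZ12, JAZ6, JAZ9, JAZ2, JAZ1, JAZ3, JAZ5, JAZ10, JAZ7 and JAZ8. JAZ12, whose protein is known to be stabilised by the ubiquitin ligase KEEP ON GOING, averaged 65.9 ± 4.45 RPKM in HIN1 stress, 50.5 ± 3.72 RPKM in HIN1 control, 64.6 ± 2.82 RPKM in WT stress and 51.9 ± 1.61 RPKM in WT control (SD, n = 3 each). It lay above the second gene, JAZ6, in every library of every group. JAZ6 averaged 29.8 to 39.9 RPKM over the groups and JAZ9 averaged 24.5 to 35.1 RPKM. The libraries of JAZ6 and JAZ9 overlapped in HIN1 stress, WT stress and WT control, so their order holds beyond the spread in HIN1 control only. JAZ2 (19.7 to 21.4 RPKM) and JAZ1 (13.9 to 18.5 RPKM) overlapped in all groups but WT stress. JAZ3 averaged 8.23 to 9.86 RPKM, below every JAZ1 library and above every JAZ5 library of its group. At the low end JAZ5 averaged 1.9 to 5.16 RPKM, JAZ10 1.5 to 2.45 RPKM, JAZ7 0.499 to 1.32 RPKM and JAZ8 0.237 to 0.903 RPKM, and JAZ7 and JAZ8 did not separate from each other in HIN1 control, WT stress or WT control.

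Most of the JAZ transcript pool came from few genes. The 10 RPKM values summed to 191 ± 34 in HIN1 stress, 157 ± 4.58 in HIN1 control, 183 ± 4.93 in WT stress and 181 ± 14.4 in WT control (SD, n = 3 each), as a description with no test. JAZ12, JAZ6 and JAZ9 together made up 64.7% to 75.8% of the sum in the 12 libraries. JAZ12 alone took 34.9% ± 4.11 in HIN1 stress and 32.1% ± 1.97 in HIN1 control, and 35.2% ± 1.15 in WT stress and 28.8% ± 1.59 in WT control. The large SD of HIN1 stress comes with the sum of 229 RPKM in its library 3, where the other HIN1 stress libraries had 163 and 182 RPKM.

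**Figure D1:**
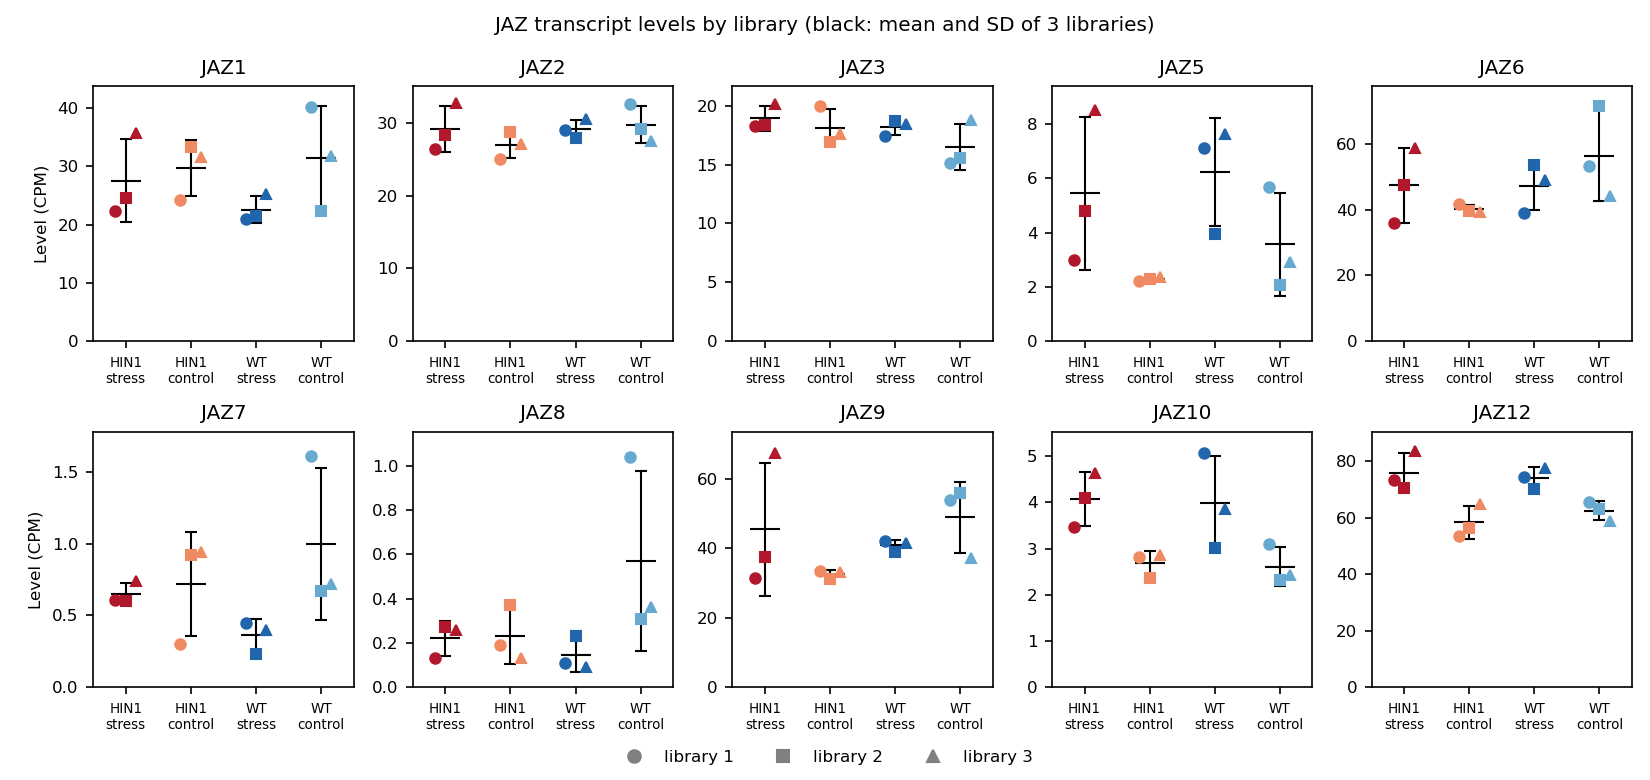
Level of each JAZ gene (CPM, 1 panel a gene, each axis from 0) in the 3 libraries of HIN1 stress, HIN1 control, WT stress and WT control, with the group mean and SD in black. JAZ12 is higher under stress in both genotypes with no overlap, JAZ7 and JAZ8 have their highest value in WT control library 1, and JAZ9 has its highest, 67.36 CPM, in HIN1 stress library 3.

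The first comparison asked how the JAZ genes stood after 96 h at low water potential in each genotype. JAZ12 and JAZ10 rose in both genotypes, JAZ5 rose in HIN1, and JAZ7 and JAZ8, a pair of low transcripts, fell in WT. In HIN1, 3 of the 10 were called and all 3 were higher, where 27.1% of all genes tested were called and 14.7% were called higher. In WT, 4 of the 10 were called, 2 higher and 2 lower, where 31.6% of all genes were called, 14.9% higher and 16.7% lower, so in both genotypes the share of JAZ genes called was near that of the genome. The median log2 fold change over the 10 was 0.18 in HIN1 and -0.14 in WT, against 0.01 and -0.00 over all genes tested. Without HIN1 stress library 3 the HIN1 median was 0.04 and 1 JAZ gene, JAZ12, was called. Calls over all genes in HIN1 moved as well, from 4591 to 6817 with 1 library left out in turn, against 6219 with all libraries. Called means an adjusted p under 0.05 in the quasi-likelihood test of edgeR, adjusted by Benjamini-Hochberg across every gene tested. Adjusted p values below are of this kind unless another source is named, and ± after a log2 fold change gives the standard error.

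JAZ12 stood at 73.36, 70.69 and 83.75 CPM in HIN1 stress, against 53.69, 56.37 and 65.00 CPM in HIN1 control. In WT it stood at 74.56, 70.36 and 77.70 CPM under stress, against 65.76, 62.99 and 58.87 CPM in control. In each genotype every stress library lay above every control library. In HIN1 the groups did not overlap for 3 JAZ genes (JAZ5, JAZ10 and JAZ12), where this held for 45.4% of all genes tested, and in WT for 3 (JAZ7, JAZ8 and JAZ12), where it held for 43.1%. The log2 fold change was 0.38 ± 0.0838 in HIN1 (adjusted p = 0.00596) and 0.25 ± 0.0837 in WT (adjusted p = 0.0423). The rise is small in fold, 1.3 times in HIN1 and 1.19 times in WT, on the most abundant JAZ transcript. The HIN1 call was made under all 18 alternative settings tried, with an adjusted p of at most 0.0286, and the WT call under 12 of 18, with an adjusted p of at most 0.114. JAZ12 overlaps 2 genes annotated on the other strand, the noncoding AT5G03235 over 211 bases and, at its 3′ end, the coding gene AT5G20910 over 28 bases, and whether the counting used strand is not given in the sources used here. AT5G20910 itself was higher under stress, with a log2 fold change of 0.27 ± 0.0799 in HIN1 (adjusted p = 0.0287) and 0.36 ± 0.0802 in WT (adjusted p = 0.00572), at 15.2 to 15.9 CPM in HIN1 stress, 11.9 to 13.6 CPM in HIN1 control, 14.5 to 16.0 CPM in WT stress and 10.8 to 13.1 CPM in WT control, and its part in the JAZ12 values was not tested.

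JAZ10 is known for splice forms that resist degradation and damp the jasmonate response, which per-gene reads do not separate. It stood at 3.47, 4.09 and 4.64 CPM in HIN1 stress, against 2.81, 2.37 and 2.87 CPM in HIN1 control, with no overlap. In WT it stood at 5.07, 3.01 and 3.85 CPM under stress, against 3.09, 2.31 and 2.43 CPM in control, where the lowest stress library lay just below the highest control library. The log2 fold change was near equal in the genotypes, 0.60 ± 0.197 in HIN1 (adjusted p = 0.0419) and 0.61 ± 0.197 in WT (adjusted p = 0.0351). The HIN1 call was lost in 6 of 18 settings and the WT call in 5 of 18, with adjusted p up to 0.14 (HIN1, without HIN1 stress library 3) and 0.164, and the direction was kept in all of them. JAZ10 shares 71 bases with the noncoding AT5G02045 on the other strand.

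JAZ5, a repressor that carries its own TPL-binding (EAR) motif, stood at 3.00, 4.80 and 8.52 CPM in HIN1 stress, against 2.23, 2.28 and 2.38 CPM in HIN1 control. The control libraries lay close together and every stress library was above them, over a wide range. In WT the values were 7.10, 3.95 and 7.62 CPM under stress, against 5.68, 2.08 and 2.93 CPM in control, and the groups overlapped through WT control library 1. The log2 fold change was 1.24 ± 0.416 in HIN1 (adjusted p = 0.0449), the largest rise of a JAZ gene there, and 0.80 ± 0.406 in WT (adjusted p = 0.157). Without HIN1 stress library 3 the HIN1 value was 0.76 (adjusted p = 0.205), and without WT control library 1 the WT value was 1.33 (adjusted p = 0.0343). The HIN1 call was made in 11 of 18 settings.

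JAZ7 and JAZ8 are short repressors with an EAR motif and an altered degron, and JAZ8 is known to resist degradation. JAZ7 stood at 0.61, 0.60 and 0.74 CPM in HIN1 stress, against 0.30, 0.92 and 0.94 CPM in HIN1 control, which overlap, and at 0.45, 0.23 and 0.40 CPM in WT stress, against 1.61, 0.67 and 0.72 CPM in WT control, which do not. JAZ8 stood at 0.13, 0.27 and 0.26 CPM in HIN1 stress, against 0.19, 0.37 and 0.13 CPM in HIN1 control, and at 0.11, 0.23 and 0.09 CPM in WT stress, against 1.04, 0.31 and 0.36 CPM in WT control. These rest on 14 to 102 reads a library for JAZ7 and 5 to 66 reads for JAZ8. In WT the log2 fold change was -1.47 ± 0.467 for JAZ7 (adjusted p = 0.0318) and -2.0 ± 0.588 for JAZ8 (adjusted p = 0.023). In HIN1 it was -0.15 ± 0.45 for JAZ7 (adjusted p = 0.84) and -0.09 ± 0.598 for JAZ8 (adjusted p = 0.933).

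The WT fall of JAZ7 and JAZ8 leans in size on WT control library 1. Without it the log2 fold changes were -0.93 for JAZ7 (adjusted p = 0.163) and -1.22 for JAZ8 (adjusted p = 0.135), and the WT calls became 3 higher (JAZ5, JAZ10 and JAZ12) and 0 lower. The remaining WT control libraries still lay above every WT stress library for both genes. WT control library 1 was also the highest of its group for all 12 genes of a list of rapid touch and wound genes. The list summed to 130, 170 and 342 CPM in HIN1 stress, 220, 421 and 271 CPM in HIN1 control, 151, 154 and 167 CPM in WT stress and 1770, 272 and 550 CPM in WT control. HIN1 stress library 3 and HIN1 control library 2 were likewise the highest of their groups for all 12 of these genes, and for 9 and 3 of the 10 JAZ genes. The most abundant genes of the list were TCH3, a calmodulin-like protein, with 426, 98.8 and 159 CPM in WT control, and SZF1, a zinc finger protein, with 376, 36.0 and 109 CPM there. Of the 12, 0 were called in HIN1 by edgeR (0 at an unadjusted p under 0.05, DESeq2 0), where 27.1% of all genes tested were called. In WT stress 10 were called lower (median log2 fold change -2.49), where 16.7% of all genes tested were called lower. Without WT control library 1, 4 of the 12 were called lower (median -1.43). The part of this signal in the JAZ7 and JAZ8 values was not tested. Over the 18 settings the WT call was made in 13 for JAZ7 and 14 for JAZ8. The JAZ7 call was also lost without WT stress library 1, 2 or 3, and the JAZ8 call without WT stress library 1 or 3. Without WT stress library 1 or 3, 0 of the 10 JAZ genes were called in WT by edgeR. Calls over all genes in WT ran from 5136 to 7546 with 1 library left out in turn, against 7239 with all libraries.

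**Figure D2:**
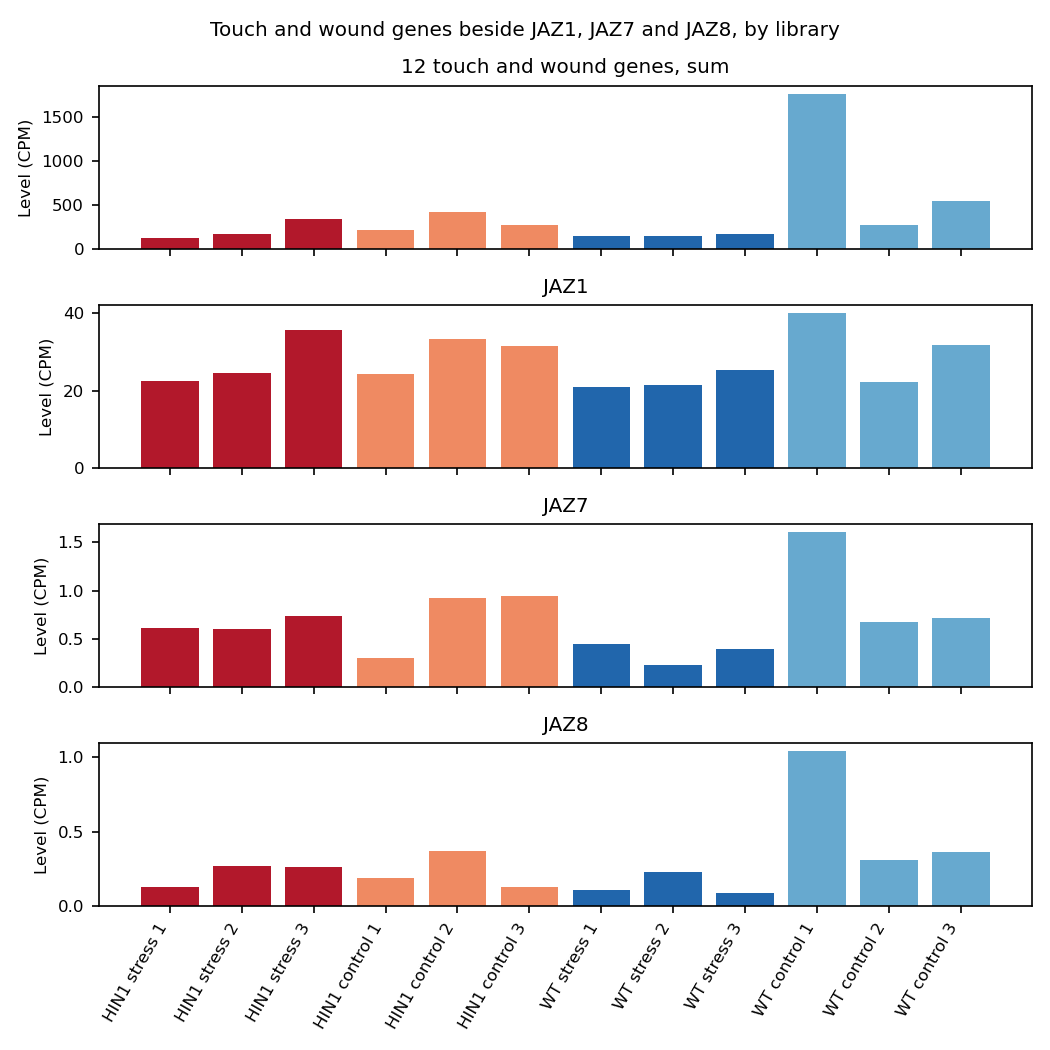
Level by library (CPM, bars from 0) of the 12 touch and wound genes summed, and of JAZ1, JAZ7 and JAZ8, in HIN1 stress, HIN1 control, WT stress and WT control. WT control library 1 holds the highest bar in each panel, 1770 CPM for the sum and 1.61 CPM for JAZ7.

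The other 5 JAZ genes were not called in either genotype. JAZ1, among the first JAZ proteins shown to bind COI1, stood at 22.39, 24.55 and 35.77 CPM in HIN1 stress, against 24.30, 33.41 and 31.60 CPM in HIN1 control (log2 fold change -0.11 ± 0.215, adjusted p = 0.746). In WT it stood at 20.94, 21.54 and 25.25 CPM under stress, against 40.11, 22.35 and 31.82 CPM in control (-0.48 ± 0.216, adjusted p = 0.114), and the groups overlapped. With 1 library left out in turn, the edgeR estimate for JAZ1 in WT ran from -0.66 to -0.25 (adjusted p = 0.0294 to 0.431). The authors' deposited table, which names its test no further than the processing notes do, gives JAZ1 in WT a log2 fold change of -0.44 ± 0.174 with an adjusted p of 0.0431, so JAZ1 counts as lower there. That table has the other JAZ calls of WT as here, in sum 2 higher and 3 lower, where it calls 26.8% of all genes with an adjusted p.

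JAZ9, known to bind MYC factors tightly, stood at 31.57, 37.54 and 67.36 CPM in HIN1 stress, against 33.44, 31.18 and 33.22 CPM in HIN1 control (0.48 ± 0.232, adjusted p = 0.15), or 0.08 without HIN1 stress library 3 (adjusted p = 0.738). In WT it stood at 42.06, 39.06 and 41.41 CPM under stress, against 53.81, 55.88 and 37.11 CPM in control (-0.26 ± 0.231, adjusted p = 0.422). JAZ6 stood at 35.94, 47.37 and 58.81 CPM in HIN1 stress, against 41.69, 39.58 and 39.25 CPM in HIN1 control (0.24 ± 0.191, adjusted p = 0.396, or 0.05 without HIN1 stress library 3), and at 39.00, 53.54 and 49.02 CPM in WT stress, against 53.30, 71.43 and 44.29 CPM in WT control (-0.26 ± 0.19, adjusted p = 0.335). Both genes thus had a positive estimate in HIN1 and a negative one in WT, with overlapping libraries throughout. JAZ2, which acts in guard cells, and JAZ3 were the steadiest. JAZ2 ranged from 25.07 to 32.70 CPM over the 12 libraries, with log2 fold changes of 0.12 ± 0.088 in HIN1 and -0.03 ± 0.0879 in WT, and JAZ3 from 15.15 to 20.16 CPM, with 0.06 ± 0.0902 in HIN1 and 0.14 ± 0.0904 in WT.

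**Figure D3:**
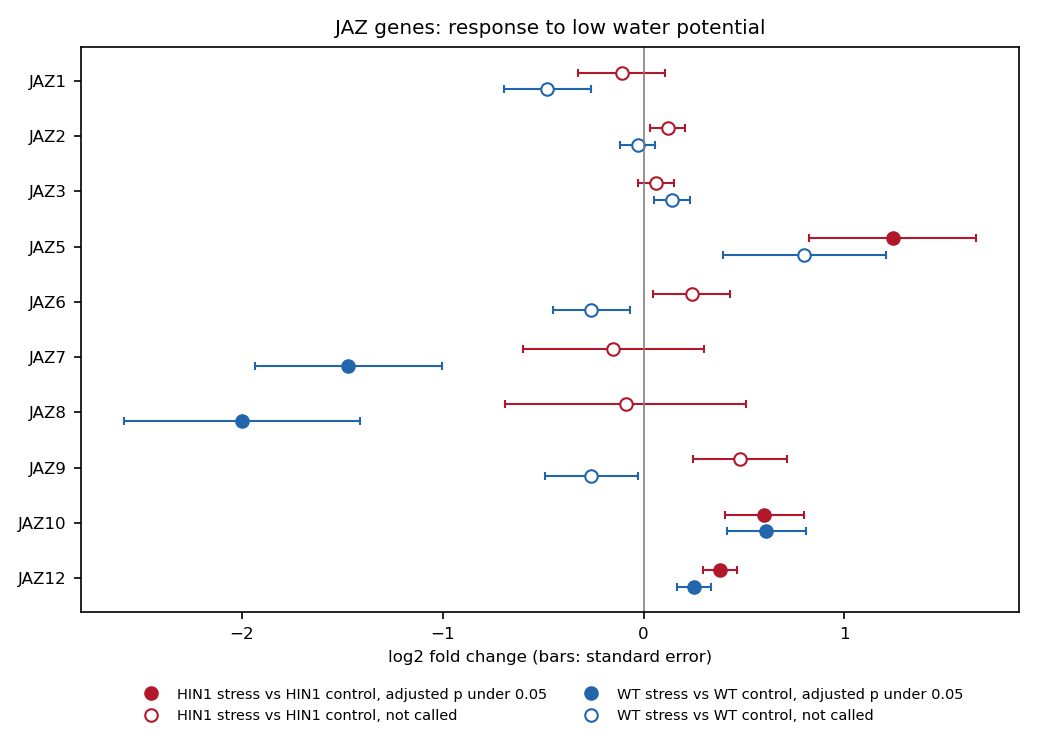
Log2 fold change of each JAZ gene at -0.7 MPa against -0.25 MPa, with its standard error, in HIN1 (red) and WT (blue), filled where the adjusted p is under 0.05. JAZ10 and JAZ12 are filled on the right in both genotypes, JAZ5 in HIN1, and JAZ7 and JAZ8 are filled on the left in WT.

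A second pair of comparisons asked whether the HIN1 line differed from WT at either water potential. It shares its libraries with the first, so the values are given side by side and not as further evidence. At control, edgeR called 0 of the 10 JAZ genes (3 at an unadjusted p under 0.05), where 2.76% of all genes tested were called, and DESeq2 also called 0, against 6.0% of all genes. JAZ6 had 39.25 to 41.69 CPM in HIN1 control, against 44.29 to 71.43 CPM in WT control, with no overlap and a log2 fold change of -0.49 ± 0.191 (adjusted p = 0.2). JAZ9 had 31.18 to 33.44 CPM in HIN1 control, against 37.11 to 55.88 CPM in WT control, again with no overlap, and a log2 fold change of -0.59 ± 0.232 (adjusted p = 0.203). Such a separation of libraries was found in 21.2% of all genes tested. With 1 library left out in turn, the JAZ6 estimate ran from -0.63 to -0.27 (adjusted p = 0.0596 to 0.516). That of JAZ9 ran from -0.75 to -0.47 (adjusted p = 0.0426 to 0.533). In the same comparison 3 of 4 green tissue genes were lower and 4 of 9 root genes higher in HIN1 control than in WT control by DESeq2 (0 and 1 called by edgeR, 3 and 5 at an unadjusted p under 0.05), and their part in the JAZ values was not tested. The authors' deposited table gives JAZ9 a log2 fold change of -0.48 ± 0.126 with an adjusted p of 0.00602 in this comparison, so it alone of the 10 is called there, where that table calls 4.64% of genes. The other gene at an unadjusted p under 0.05 was JAZ8, at -1.31 ± 0.555 (adjusted p = 0.232), with the high WT control library 1 among its values. For JAZ8 the authors' deposited table has -0.28 ± 0.142. Its fold changes and errors may thus be formed differently from those of edgeR, and their sizes are not compared here.

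Under stress, 0 of the 10 were called by edgeR (0 at an unadjusted p under 0.05), 0 by DESeq2 and 0 in the authors' deposited table, where 3.42% of all genes were called by edgeR, 4.2% by DESeq2 and 4.5% in that table. JAZ7 was the one gene whose libraries did not overlap, at 0.60 to 0.74 CPM in HIN1 stress, against 0.23 to 0.45 CPM in WT stress, with a log2 fold change of 0.84 ± 0.474 (adjusted p = 0.646). A separation of that kind was found in 16.8% of all genes tested. JAZ12 and JAZ10 differed by 0.03 ± 0.0835 and 0.03 ± 0.194 on the log2 scale between HIN1 stress and WT stress (adjusted p = 0.982 and 0.992).

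The test of the difference itself, which takes the WT response to stress away from the HIN1 response, called 0 of the 10 JAZ genes in edgeR (2 at an unadjusted p under 0.05) and 0 in DESeq2, where edgeR called 0.157% and DESeq2 0.892% of all genes. JAZ8 had the largest estimate, 1.91 ± 0.843 (adjusted p = 0.534), followed by JAZ7 at 1.32 ± 0.648 (adjusted p = 0.561) and JAZ9 at 0.74 ± 0.327 (adjusted p = 0.534). Without WT control library 1 the estimates were 1.12 for JAZ8 and 0.78 for JAZ7 (adjusted p = 0.924 and 0.94), and without HIN1 stress library 3 that of JAZ9 was 0.34 (adjusted p = 0.74). The median estimate over the 10 was 0.4 in the fit with all libraries and 0.1 with the one or the other of these libraries left out. So the calls of JAZ5 in HIN1 and of JAZ7 and JAZ8 in WT were not shown to differ between the genotypes. For JAZ10 the difference was -0.01 ± 0.277 and for JAZ12 it was 0.13 ± 0.118 (adjusted p = 0.997 and 0.759).

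**Figure D4:**
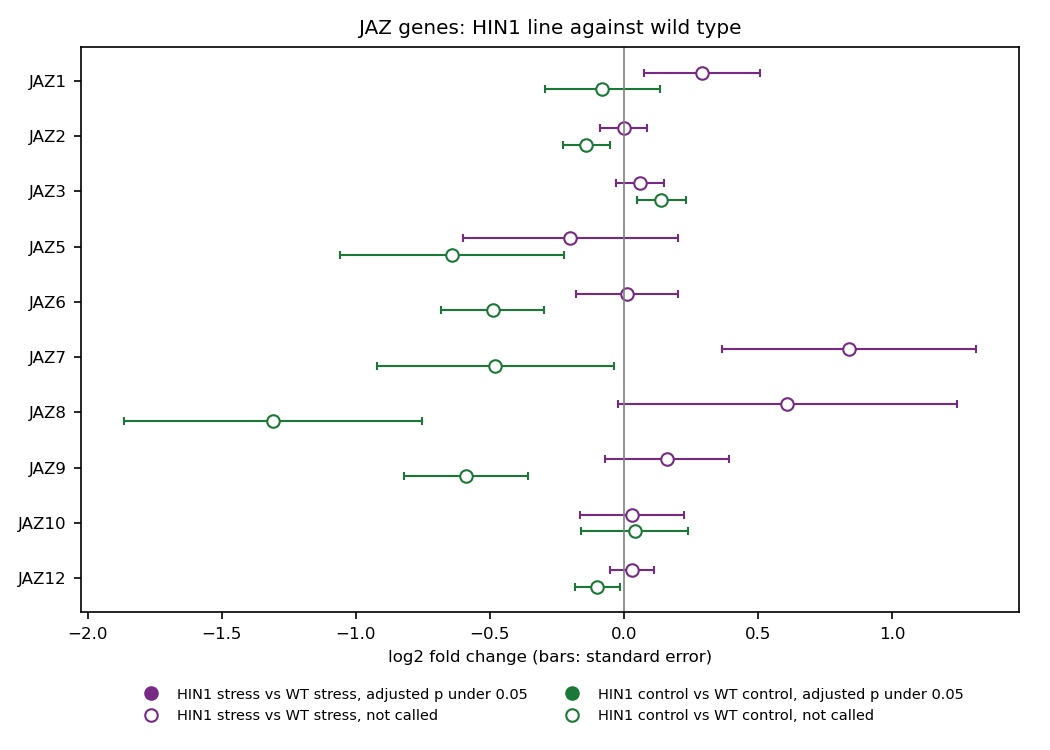
Log2 fold change of each JAZ gene in HIN1 against WT, with its standard error, under stress (purple) and at control (green), filled where the adjusted p is under 0.05. No point is filled, and at control JAZ6, JAZ8 and JAZ9 lie farthest left relative to their errors.

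The JAZ family has 3 further members, JAZ4 (AT1G48500), JAZ11 (AT3G43440) and JAZ13 (AT3G22275). JAZ4 was the one called between the genotypes. It stood at 1.33, 2.03 and 2.01 CPM in HIN1 stress and 2.45, 2.88 and 3.07 CPM in HIN1 control, against 3.44, 3.51 and 2.75 CPM in WT stress and 3.79, 4.53 and 4.49 CPM in WT control, so the HIN1 libraries were lower at each water potential with no overlap. The log2 fold change was -0.85 ± 0.179 in HIN1 stress against WT stress (adjusted p = 0.0199) and -0.61 ± 0.175 in HIN1 control against WT control (adjusted p = 0.0952). It was also lower under stress in HIN1 (-0.64 ± 0.18, adjusted p = 0.0208), with -0.40 ± 0.174 in WT (adjusted p = 0.104). DESeq2 called it lower in HIN1 at control as well as under stress. The call between genotypes under stress was lost in 4 of 18 settings and that of the HIN1 stress response in 3 of 18. JAZ11 and JAZ13 were not called, with group means of 10.8 to 11.4 CPM and 0.13 to 0.326 CPM.

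Around the JAZ genes, 42 of 44 genes on lists of jasmonate synthesis, breakdown, perception, transcription factors and response were tested. Under stress 16 were called higher and 2 lower in HIN1, where 14.7% of all genes tested were higher and 12.5% lower. In WT 14 were called higher and 2 lower, where 14.9% of all genes were higher and 16.7% lower. Without HIN1 stress library 3 the HIN1 counts were 11 higher and 1 lower of the 43 then tested. The median log2 fold change was 0.28 in HIN1 and 0.10 in WT, against 0.01 and -0.00 over all genes tested. Between the genotypes 0 were called at either water potential and 0 for the difference of the responses (3, 3 and 1 at an unadjusted p under 0.05, and 0 each in DESeq2).

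On the synthesis list 6 of 13 rose in HIN1 and 5 of 13 in WT, with 0 lower in either. LOX2, a chloroplast lipoxygenase that starts the pathway, rose by 2.26 ± 0.34 in HIN1 (adjusted p = 0.000583) and 2.99 ± 0.35 in WT (adjusted p = 8.33e-05) on the log2 scale, where JAZ12 rose by 0.38 and 0.25. AOC4, an allene oxide cyclase, rose by 0.45 ± 0.0563 in HIN1 and 0.54 ± 0.0564 in WT. OPR3, the reductase after it, rose by 0.50 ± 0.1 in HIN1 and 0.48 ± 0.1 in WT. ACX1, an acyl-CoA oxidase of the last steps, rose by 0.39 ± 0.0853 in HIN1 and 0.43 ± 0.0853 in WT. On the breakdown list 3 of 9 rose and 1 fell in each genotype. JOX1, a jasmonate oxidase, rose by 1.83 ± 0.571 in HIN1 and 2.78 ± 0.623 in WT. ILL6, a hydrolase of jasmonoyl-amino acids, rose by 0.47 ± 0.124 in HIN1 and 0.38 ± 0.124 in WT. JOX3 rose by 1.32 ± 0.415 in HIN1 and 1.29 ± 0.434 in WT. The member that fell was CYP94B1, a hydroxylase of jasmonoyl-isoleucine, at -0.41 ± 0.132 in HIN1 (adjusted p = 0.0384) and -0.47 ± 0.132 in WT (adjusted p = 0.0194). Without HIN1 stress library 3, edgeR called 0 genes of this list higher and 0 lower in HIN1, and 3 higher and 1 lower in WT.

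The partners through which JAZ proteins work were close to level. Of COI1, NINJA and TPL, 0 of 3 were called by edgeR in either genotype (0 at an unadjusted p under 0.05, DESeq2 0), and TPL, the most abundant, had log2 fold changes of -0.07 ± 0.0617 in HIN1 and -0.09 ± 0.0617 in WT. Of 7 transcription factors on the list 1 was called in each genotype, MYC5, a MYC factor best known from stamens, which rose by 2.37 ± 0.284 in HIN1 and 3.07 ± 0.294 in WT. MYC5 averaged 3.28 ± 0.262 CPM in HIN1 stress and 0.632 ± 0.123 CPM in HIN1 control, and 4.12 ± 0.874 CPM in WT stress and 0.486 ± 0.235 CPM in WT control (SD, n = 3 each). MYC2, the main target of JAZ repression, was not called, with 0.34 ± 0.281 in HIN1 and -0.36 ± 0.28 in WT. Its level of 158.6 CPM in WT control library 1, against 57.9 and 87.3 CPM in the other WT control libraries, was the highest of its group, as for JAZ7 and JAZ8.

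Of 10 response genes, 6 rose and 1 fell in HIN1, and 5 rose and 1 fell in WT. VSP2, a vegetative storage protein, rose by 2.74 ± 0.217 in HIN1 and 2.71 ± 0.216 in WT, and CORI3, a coronatine-induced lyase, by 2.71 ± 0.318 in HIN1 and 2.75 ± 0.318 in WT. THI2.1, a thionin, had 3.97, 6.02 and 27.39 CPM in HIN1 stress, against 0.36, 0.29 and 0.44 CPM in HIN1 control, and 23.13, 6.98 and 28.60 CPM in WT stress, against 0.09, 0.62 and 0.03 CPM in WT control. So log2 changes over 2 in VSP2 and CORI3 stood beside changes of at most 1.24 in the JAZ genes that rose. On the same list VSP1 rose by 1.45 ± 0.326 in HIN1 and 1.83 ± 0.329 in WT, and CLH1 by 1.00 ± 0.244 and 1.03 ± 0.244. JR1 (0.30 ± 0.117 in HIN1 and 0.18 ± 0.117 in WT) and TAT3 (-0.97 ± 0.883 and 0.13 ± 0.915) were not called. The median over the 10 response genes was 1.22 in HIN1 and 0.61 in WT. The member that fell in both was ORA59, a factor of the ethylene branch, at -1.61 ± 0.513 in HIN1 (adjusted p = 0.0372) and -2.75 ± 0.541 in WT (adjusted p = 0.00271). ERF1, on the same list, went the other way in HIN1, at 1.67 ± 0.481 (adjusted p = 0.0236). That call was made in 14 of 18 settings. In WT, ERF1 was not called (-0.19 ± 0.498, adjusted p = 0.8). PDF1.2A was not called in either genotype (-2.71 ± 1.27 in HIN1 and -1.08 ± 1.43 in WT).

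**Figure D5:**
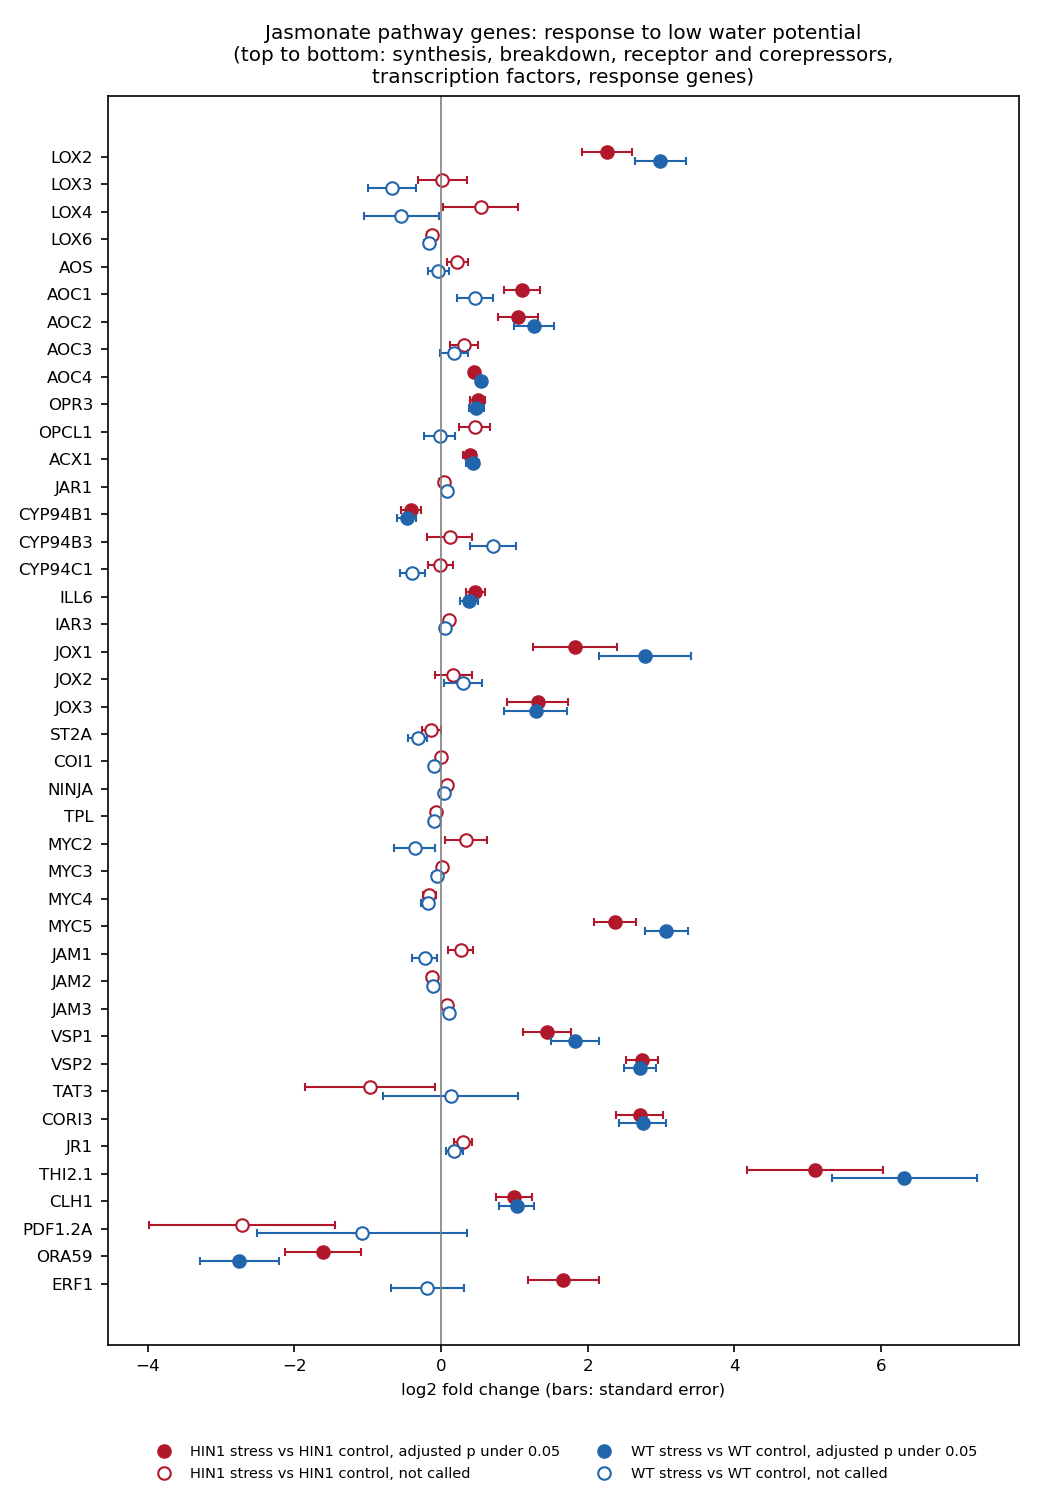
Log2 fold change of 42 jasmonate pathway genes at -0.7 MPa against -0.25 MPa, with its standard error, in HIN1 (red) and WT (blue), filled where the adjusted p is under 0.05. LOX2, MYC5, VSP2, CORI3 and THI2.1 are filled above 2 in both genotypes, while COI1, NINJA and TPL lie near 0.

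The profile of each JAZ gene over the 12 libraries was set beside those of 20218 genes of at least 1 CPM, by the root mean square difference of log2 CPM after centring each gene, where 0 is an equal shape. This is a description over libraries that share genotype and treatment within a group, and a flat gene finds a flat neighbour easily. JAZ12 was nearest to ALDH10A8 (AT1G74920), an aldehyde dehydrogenase, at 0.049, where its own SD over libraries was 0.185, and among pathway genes to ACX1 at 0.105. JAZ10 was nearest to AT4G36430 at 0.149 and, of the pathway, to ILL6 at 0.155, against an SD of its own of 0.358. JAZ5 had LBD11 (AT2G28500) at 0.23 and, of the pathway, OPCL1, a ligase of jasmonate precursors, at 0.502, with an SD of 0.714. JAZ7 and JAZ8 had AT2G03540 at 0.347 and AT1G23710 at 0.23, and LOX3, a wound-induced lipoxygenase, as nearest pathway gene at 0.469 and 0.636. JAZ1 was nearest to AT5G39030 at 0.119 and to CYP94C1, a hydroxylase of jasmonoyl-isoleucine, at 0.213. JAZ6 was nearest to AT5G25280 at 0.135 and CYP94C1 at 0.237, and JAZ9 to BBX14 (AT1G68520) at 0.133 and AOS, the allene oxide synthase, at 0.207. The flat JAZ2 lay 0.0435 from EMB1789 (AT5G56930) and 0.1 from MYC3, and JAZ3 lay 0.0483 from AT3G62360 and 0.0913 from JAR1, which makes jasmonoyl-isoleucine. The pathway pool held 39 genes. The gene's own SD was 0.307 for JAZ1, 0.109 for JAZ2, 0.12 for JAZ3 and 0.278 for JAZ6. It was 0.695 for JAZ7, 0.823 for JAZ8 and 0.34 for JAZ9. A distance near a gene's own SD means little shared shape, as for JAZ2 with MYC3. The next pathway gene was close for JAZ6 (AOS, 0.239) and JAZ8 (CYP94C1, 0.638). Within the 10, JAZ6 and JAZ9 were each other's nearest, at 0.193, and JAZ10 was nearest to JAZ12, at 0.232.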

How the data were processed

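Poly-A RNA of whole seedlings was measured in 12 libraries, 3 in each of 4 groups. The authors deposited reads per gene, RPKM and the fraction of reads at several sites per library, per the file headers. The deposited reads are expected counts, since 4.09% to 4.56% of genes hold fractional values. Comparison tables were also deposited by the authors for 3 of the contrasts, with columns, per the file headers, for a base mean signal, the log2 fold change and its error, a test score and p-values. The submitters' processing notes name TAIR10 as build and, as tools, Bowtie2, CASAVA, DESeq2, Trimmomatic 0.35 and bcl2fastq 1.8.4. Which counter, annotation release and strand setting made the reads per gene was not given in the sources used here.

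Rounded counts went through edgeR 4.0.16 (limma 3.58.1, R 4.3.3): filterByExpr (minimum count 10, 22924 of 33602 genes kept), TMM factors (0.947 to 1.033), 1 quasi-likelihood fit with 4 group coefficients and 8 residual degrees of freedom, two-sided tests, and Benjamini-Hochberg adjustment across every gene tested. A standard error is the size of the log2 fold change over the root of its F statistic. CPM levels use the TMM-adjusted library size. Alternatives were DESeq2 1.42.0, median-ratio factors, no filter, unique reads only, a replicate block, only the groups compared, and each library left out. Replicate numbers did not meet the rule for pairing, a correlation of deviations over 0.1 in every pair. The fits were tested on simulated data.

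The members and gene lists were chosen with earlier results of these data known. By rule, all 10 JAZ genes are named, then JAZ4, JAZ11 and JAZ13, up to 3 called genes per pathway list in order of adjusted p (for a list with none, the most abundant), the 2 most abundant touch genes, and the nearest gene to each JAZ gene. MYC2, VSP1, CLH1, JR1, TAT3, ORA59, ERF1, PDF1.2A and AT5G20910 were named after their values were seen. DAD1 and JOX4 had too few reads to test. The lengths behind the deposited RPKM differ from RefSeq exon lengths for 9 of the 10 JAZ genes, so levels between genes follow the authors' gene models.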

Additional observations from a re-analysis of the deposited data

How the results depend on the processing

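Across up to 18 alternatives each, 0 log2 fold changes of a JAZ gene that passed the test changed sign. Of 890 JAZ values recomputed, 33 lost and 5 gained a call, and 852 kept their side of the threshold. With only the 2 groups compared, 2 JAZ genes (JAZ7 and JAZ12) were called in WT in place of 4. Leaving out 1 library in turn gave 0 to 4 JAZ calls in WT and 1 to 4 in HIN1. Over all genes the same settings called 5136 to 7546 in WT and 4591 to 6817 in HIN1. In HIN1, JAZ12 alone was left without HIN1 control library 1, 2 or 3, HIN1 stress library 2 or 3, or WT stress library 3. Leaving out 1 library gave 0 to 1 JAZ calls in HIN1 control against WT control, the 1 being JAZ9 without HIN1 stress library 3 (adjusted p = 0.0426). Pathway calls lay at 11 to 19 in HIN1, against 18 with all libraries, the lowest without HIN1 control library 2, at 13 to 16 in WT, and at 0 to 1 in HIN1 stress against WT stress, the 1 being ERF1 without WT stress library 2.

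Libraries of the same replicate number did not all deviate together (correlation of deviations -0.11 to 0.195 over 18 pairs, 5 over 0.1). Among these were 0.195, 0.127 and 0.122 between library 3 of HIN1 stress, HIN1 control and WT stress. Of pairs of unlike number, 4 of 36 were over 0.1 (-0.198 to 0.148). By the rule the numbers were not taken as pairs, so the main p-values make no allowance for replicate number. With the replicate block, 3 JAZ genes were called in HIN1 and 3 in WT, where JAZ7 had an adjusted p of 0.051, and 0 in the other comparisons, and 0 breakdown genes fell in HIN1, where CYP94B1 did so without the block. Over all genes, HIN1 control against WT control called 633, or 300 with only those groups, 1474 with DESeq2, and 348 to 2288 with 1 library left out. The interaction called 36, or 205 with DESeq2 and 12 to 238 with 1 library left out. In the upstream windows the G-box and the T/G-box were each in 4 and the abscisic acid core in 0. The causes of these shifts were not tested. Depth limits JAZ7 and JAZ8, at no more than 102 reads a library. The interaction could not be fitted with only 2 groups.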

Other observations

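Genes that mark green tissue and root were measured beside the JAZ genes as values on the make-up of the seedlings, with no part in their levels tested. Of 4 green tissue genes, 0 were called by edgeR in HIN1 stress against HIN1 control (1 at an unadjusted p under 0.05, DESeq2 0), and 2 fell in WT stress against WT control by edgeR's quasi-likelihood test, LHCA1 (log2 fold change -0.73) and LHCB2.1 (-0.43), both light-harvesting proteins. Their summed level ran from 21000 to 22200 CPM in HIN1 stress, 18000 to 22800 CPM in HIN1 control, 20600 to 21500 CPM in WT stress and 22600 to 28000 CPM in WT control. Of 9 root genes, 1 rose (TIP2;3, a tonoplast aquaporin) and 1 fell (NRT2.1, a nitrate transporter) in HIN1, and 1 rose in WT (EXPA7, an expansin of root hairs). Of all genes tested, edgeR called 27.1% for the stress response in HIN1 and 31.6% in WT. NRT2.1 was also higher in HIN1 control than in WT control, with a log2 fold change of 2.14 ± 0.359 (adjusted p = 0.00713). By DESeq2, 4 of 9 root genes were higher and 3 of 4 green tissue genes lower in HIN1 control than in WT control. There edgeR called 1 and 0 (5 and 3 at an unadjusted p under 0.05). In the test of the difference between the stress responses of HIN1 and WT, DESeq2 called 2 green tissue genes higher. There edgeR called 0 (3 at an unadjusted p under 0.05). Of all genes, DESeq2 called 6.0% and 0.892% in these comparisons, and edgeR 2.76% and 0.157%. The root sum ran from 179 to 186 CPM in HIN1 stress, 192 to 226 CPM in HIN1 control, 170 to 192 CPM in WT stress and 147 to 205 CPM in WT control. These genes were named after their values were seen.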
